A study of Mus musculus with 20 samples.

Results

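*Nkx2-5*, *Gata3*, *Six2*, *Sox9* and *Isl1* are 5 transcription factor genes known from the mesenchyme of the pyloric sphincter, the ring of smooth muscle that closes the stomach against the duodenum. They were chosen by symbol from the 43280 genes of the count tables, and all 5 were present in every table. The data are RNA-seq of sorted gut mesenchyme from mouse embryos at E13.5 (labelled C57BL/6, though the study's reporting form gives mixed backgrounds for the floxed *Eed*, reporter and adult Cre lines) (2 libraries for each organ and genotype), ATAC-seq peaks of the same 4 conditions (1 list for each, from pooled replicates), and RNA-seq of stromal cells from the adult small intestine (2 libraries for each genotype). Embryonic controls were Bapx1-cre;Rosa26mTmG and knockouts were Eedfl/fl;Bapx1-cre;Rosa26mTmG, and GFP+ cells were sorted from the stomach and from the intestine of both. Bapx1-cre, which all embryonic groups carry, acts in the mesenchyme of the developing gut, and the mTmG reporter turns on GFP in cells where Cre has acted. Adult groups, at about 10 weeks of age, were labelled WT and EED-KO. Per the study's methods, both carried an inducible Cre driven by Pdgfrβ and the mTmG reporter, both were given tamoxifen, and the EED-KO mice also carried floxed *Eed*. The study calls its replicates biological, but the labels do not say from which animals or litters each library came, so p-values measure only the spread between these libraries. They also do not say on which side the pyloric tissue was kept when stomach and intestine were separated.

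Pyloric mesenchyme forms at the border of 2 fields, the *Barx1*-expressing stomach and the intestine. BMP signals at this border are known to induce *Nkx2-5*, and *Sox9* acts there as well, in part by setting the character of the overlying pyloric epithelium. *Nkx2-5* and *Gata3* are needed for the dorsal muscle fascicles of the sphincter, *Isl1* acts upstream of *Gata3* in pyloric muscle, and *Six2* is expressed in the posterior stomach and is needed for a normal sphincter. *Eed* encodes a core subunit of PRC2, the complex that methylates lysine 27 of histone H3 and holds developmental genes silent.

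Embryonic libraries held 30236159 to 39606157 counts on genes and adult libraries 11404712 to 15903642. *Eed*, the deleted gene, stood at 38.1 to 41.5 counts for every 1000000 counts of a library (CPM) in the 4 embryonic controls and at 7.40 to 11.5 CPM in the 4 embryonic knockouts. In the adult it stood at 29.7 and 33.4 CPM in controls and 25.7 and 25.05 CPM in knockouts, a far smaller gap on this scale. These totals sum all exons and do not show which exon was lost. Mesenchymal markers (10 genes, among them *Col1a1*, *Col3a1* and *Pdgfra*) summed to 5156 to 10010 transcripts for every 1000000, corrected for gene length (TPM) in the embryonic libraries. By TPM the gap of adult *Eed* was wider than by CPM, at 34.8 and 38.1 TPM in controls and 21.2 and 18.6 TPM in knockouts. Of 3 splenic mesenchyme markers, *Tlx1* and *Nr5a1* had no count in the control intestine, while *Tcf21* was at 796.2 TPM there and at 872.8 TPM in the control stomach. Endothelial markers summed to 70.7 to 76.9 TPM in the control and 87.4 to 87.5 TPM in the *Eed* KO stomach, and to 115 to 125 TPM in the control and 121 to 131 TPM in the *Eed* KO intestine. Most of each sum was *Ets1*, so the sums say little about the other markers. Its mean was 58.2 TPM in the control and 54.6 TPM in the *Eed* KO stomach. In the intestine it was 103.7 TPM in the control and 83.0 TPM in the *Eed* KO.

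Sequences of the gene starts and of 2 nearby accessible regions are given first, because the open chromatin described further on lies in them. RefSeq promoter entries (GRCm38.p6, the build of the peak files under its other name mm10) were found for 4 of the 5 genes, *Nkx2-5*, *Gata3*, *Six2* and *Isl1*. The 3 printed here are the bases upstream of the start, 5′ to 3′ on the strand of the gene, and each lay under a peak in all 4 conditions. They are chr17:85688275-85688504 on the minus strand for *Six2*, chr13:116309690-116309938 on the minus strand for *Isl1*, and chr2:9878601-9878850 on the minus strand for *Gata3*, the last of which overlaps an exon of the antisense transcript *Gm13256*. The promoter window of *Nkx2-5* lies in an exon of a longer *Nkx2-5* transcript and is not printed. The distal regions are the 300 central bases of the region at -2716 bp from the *Six2* start (chr17:85690840-85691139, plus strand) and of the region at -20071 bp from the *Nkx2-5* start (chr17:26861486-26861785, plus strand), which were open in the stomach but had no peak in the control intestine. Capitals mark a match to 1 of 6 motifs searched on both strands.
Six2 promoter: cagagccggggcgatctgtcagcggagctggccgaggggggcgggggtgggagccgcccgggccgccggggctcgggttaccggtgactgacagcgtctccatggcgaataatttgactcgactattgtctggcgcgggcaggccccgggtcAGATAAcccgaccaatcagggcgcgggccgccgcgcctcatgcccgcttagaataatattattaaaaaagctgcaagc
Isl1 promoter: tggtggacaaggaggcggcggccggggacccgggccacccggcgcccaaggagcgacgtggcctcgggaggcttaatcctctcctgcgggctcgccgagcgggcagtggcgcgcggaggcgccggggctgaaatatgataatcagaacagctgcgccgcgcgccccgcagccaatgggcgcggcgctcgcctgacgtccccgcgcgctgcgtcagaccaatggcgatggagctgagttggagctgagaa
Gata3 promoter: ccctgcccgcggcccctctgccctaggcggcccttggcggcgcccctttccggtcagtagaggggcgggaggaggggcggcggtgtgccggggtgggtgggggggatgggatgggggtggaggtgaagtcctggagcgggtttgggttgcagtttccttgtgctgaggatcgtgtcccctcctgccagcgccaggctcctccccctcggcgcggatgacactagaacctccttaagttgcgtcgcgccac
Six2 upstream region: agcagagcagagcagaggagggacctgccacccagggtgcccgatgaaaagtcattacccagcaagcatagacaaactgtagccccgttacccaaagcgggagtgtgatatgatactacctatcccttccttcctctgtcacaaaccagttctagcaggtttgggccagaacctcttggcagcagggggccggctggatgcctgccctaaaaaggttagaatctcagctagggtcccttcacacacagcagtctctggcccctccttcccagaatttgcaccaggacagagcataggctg
Nkx2-5 upstream region: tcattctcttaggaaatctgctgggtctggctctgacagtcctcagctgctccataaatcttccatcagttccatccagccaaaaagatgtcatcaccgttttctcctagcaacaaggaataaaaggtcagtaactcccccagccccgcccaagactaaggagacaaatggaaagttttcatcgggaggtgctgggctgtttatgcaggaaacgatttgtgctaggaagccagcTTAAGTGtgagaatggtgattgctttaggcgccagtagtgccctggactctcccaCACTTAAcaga

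The motifs were AGATAA for GATA factors, TNAAGTG for NKX2-5, ACAAAG for SOX factors, TCAGGTTTC for sine oculis factors, TAATTA as a homeodomain core and TATAAA as the TATA box. AGATAA was found once, at -98 to -93 from the RefSeq start of *Six2*, and 9.99% of all 32851 promoters of 250 bases hold it. TNAAGTG was found at bases 235 to 241 and 290 to 296 of the *Nkx2-5* upstream region, once on each strand, and 15.2% of windows of 300 bases at the centres of all 115789 control stomach peaks hold at least 1 match. No matches overlapped, and none of the other 4 motifs was found in the promoters of the 4 genes or in the 2 regions. CpG pairs were 1.06 times as frequent as their bases would give in the *Isl1* promoter, 1.01 in *Six2*, 0.633 in *Gata3* and 0.535 in *Nkx2-5*, against a median of 0.374 over all promoters.

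In the control embryo, which of the 2 organs carries these genes was the first question. All 5 were lower in the intestine than in the stomach, by 10.6-fold to 23.6-fold, and all 5 passed the test (edgeR quasi-likelihood F-test, Benjamini-Hochberg adjusted p under 0.05 and log2 fold change above 1 in size). Of the 16218 genes tested, 3.39% were lower in the control intestine by the same rule and 1.68% were higher. These are bulk samples, so fewer cells with a transcript and less transcript per cell cannot be told apart.

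*Six2*, a sine oculis homeodomain gene (chr17:85684277-85688274, minus strand, mm10), was the most abundant of the 5 in the stomach. It was measured at 197 and 149 CPM in the control stomach and at 5.76 and 13.1 CPM in the control intestine. The lowest stomach library stood far above the highest intestinal one, and the log2 difference of intestine over stomach was -4.20 ± 0.36 (SE, adjusted p = 0.000834). Per length, *Six2* reached 247.9 ± 49.6 TPM (SD, n = 2) in the control stomach and ranked 624th of the 21924 genes listed above 0.

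*Isl1*, a LIM homeodomain gene (chr13:116298281-116309689, minus strand), came next at 41.7 ± 13.3 TPM in the control stomach. Its libraries stood at 66.5 and 42.1 CPM in the stomach and at 3.46 and 4.95 CPM in the intestine. The groups did not overlap, with a log2 difference of -3.70 ± 0.32 (adjusted p = 0.000891).

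*Sox9*, an HMG-box gene (chr11:112782224-112787760, plus strand), had the closest replicates. It was measured at 12.3 and 10.6 CPM in the control stomach against 0.983 and 1.18 CPM in the control intestine. The log2 difference was -3.40 ± 0.22 (adjusted p = 0.000319), the smallest p of the 5.

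*Nkx2-5*, an NK2 homeodomain gene (chr17:26838664-26841565, minus strand), and *Gata3*, a zinc finger gene (chr2:9857078-9890034, minus strand), varied far more between the control stomach libraries. *Nkx2-5* stood at 32.1 and 6.40 CPM in the stomach and at 0.478 and 1.18 CPM in the intestine. *Gata3* stood at 13.0 and 2.88 CPM in the stomach and at 0.253 and 0.774 CPM in the intestine, where it rested on 9 and 23 counts. Both genes were higher in each stomach library than in either intestinal library, but replicate 1 of the stomach held 5.02 times the *Nkx2-5* and 4.52 times the *Gata3* of replicate 2. The log2 differences were -4.56 ± 0.82 for *Nkx2-5* (adjusted p = 0.0169) and -3.98 ± 0.80 for *Gata3* (adjusted p = 0.0265). Their calls rested on single libraries. Without either control intestine library *Nkx2-5* no longer passed (adjusted p = 0.15 and 0.0767), and without either of these, or without replicate 1 of the control stomach, *Gata3* did not either (adjusted p = 0.206, 0.089 and 0.0606).

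By TPM the order in the control stomach was *Six2*, *Isl1*, *Nkx2-5*, *Sox9* and *Gata3*. *Nkx2-5* at 38.4 ± 36.3 TPM did not differ from its neighbours *Isl1* and *Sox9* (8.38 ± 0.91 TPM) beyond its spread, nor did *Sox9* from *Gata3* (6.08 ± 5.49 TPM). In the control intestine the order was *Six2* (13.4 ± 7.6 TPM), *Isl1* (3.19 ± 0.87), *Nkx2-5* (1.64 ± 1.01), *Sox9* (0.784 ± 0.117) and *Gata3* (0.390 ± 0.286). *Six2* stood apart there. For the later genes the libraries of neighbours did not overlap, though their ranges of mean ± SD did. The *Eed* KO stomach had *Six2* (174 ± 10.5 TPM), *Isl1* (33.1 ± 6.8) and *Nkx2-5* (31.0 ± 6.5), the latter 2 within their spread, then *Gata3* (12.2 ± 3.3) and *Sox9* (11.1 ± 0.7), also within theirs. The *Eed* KO intestine had *Six2* (39.9 ± 1.9), *Isl1* (10.1 ± 1.8), *Nkx2-5* (7.48 ± 2.18), *Sox9* (3.33 ± 0.81) and *Gata3* (3.10 ± 0.70). There the libraries of *Isl1* and *Nkx2-5* overlapped, as did those of *Sox9* and *Gata3*.

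**Figure D1:**
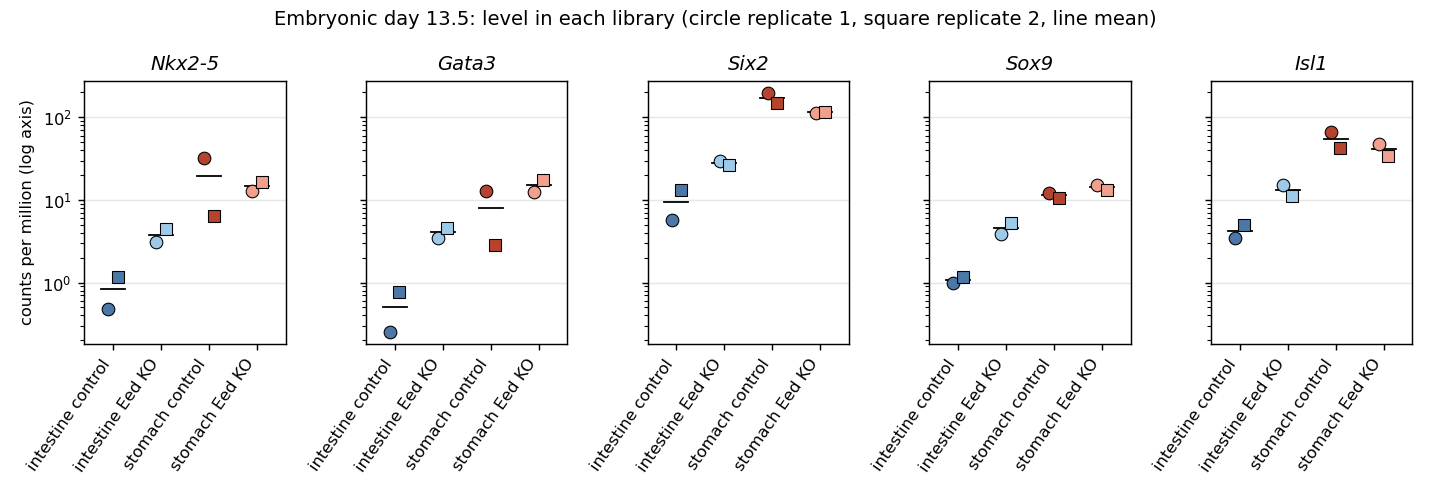
CPM of the 5 genes (log axis) in the 8 embryonic libraries, 2 for each organ and genotype, with the mean as a line. All stomach libraries sit above all intestinal libraries of the same genotype for each gene, and the 2 control stomach libraries of Nkx2-5 (32.1 and 6.40) and Gata3 (13.0 and 2.88) lie far apart.

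The control libraries differed in a shared direction. For all 5 genes replicate 1 stood above replicate 2 in the control stomach and below it in the control intestine. Among the other 544 genes that were lower in the control intestine, 136 (25%) had this pattern, and among all tested genes 19.4%. Genes that mark the intestine, the spleen or both, picked after their values were seen, were also higher in replicate 1 of the control stomach. *Nkx2-3*, an NK2 gene of intestinal and splenic mesenchyme, had 71 and 8 counts in the 2 control stomach libraries, *Hand1*, an intestinal gene, had 67 and 11, and *Tlx1* had 54 and 14. The part of these cells in the stomach values was not tested.

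Loss of *Eed* in the stomach was compared next. None of the 5 genes passed the test there, while 5.65% of all genes did (4.84% higher and 0.808% lower). At an unadjusted p under 0.05 the count was also 0, and DESeq2 called none.

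*Nkx2-5* was measured at 12.8 and 16.6 CPM in the *Eed* KO stomach, between the 2 control libraries (log2 difference -0.39 ± 0.64, adjusted p = 0.766). *Gata3* was measured at 12.4 and 17.6 CPM, a log2 difference of 0.92 ± 0.62 (adjusted p = 0.426). For these 2 genes the spread of the controls leaves a wide range of differences possible. Without replicate 1 of the control stomach the difference of *Nkx2-5* turned to 1.20 and that of *Gata3* rose to 2.38, neither past the test.

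*Six2* stood at 112 and 118 CPM in the *Eed* KO stomach, both below the 2 controls (-0.59 ± 0.31, adjusted p = 0.316). *Sox9* stood at 15.2 and 13.3 CPM, both above the 2 controls (0.32 ± 0.19, adjusted p = 0.351). *Isl1* stood at 47.8 and 34.2 CPM, overlapping the controls (-0.41 ± 0.28, adjusted p = 0.437). The better measured genes thus stayed within about 1 log2 unit of the control stomach, on the scale that holds the bulk of genes constant. Spike-in counts summed to 37590 and 36020 in the control stomach and to 12108 and 4871 in the *Eed* KO stomach. Scaled by these totals instead, the median gene rose by 2.39 on the log2 scale in the *Eed* KO stomach. All 5 genes were then called higher, as were 15419 of the 16218 genes tested. Relative to that median their differences were -0.22 for *Nkx2-5*, 1.10 for *Gata3*, -0.55 for *Six2*, 0.30 for *Sox9* and -0.47 for *Isl1*.

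In the intestine the same deletion gave higher levels. *Sox9* and *Isl1* rose past the test, against 2.38% of all genes higher by the same rule. *Six2*, *Gata3* and *Nkx2-5* had positive differences that did not pass.

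*Sox9* was measured at 3.85 and 5.19 CPM in the *Eed* KO intestine, against 0.983 and 1.18 CPM in controls. Both knockouts stood more than 3-fold above both controls, and the log2 difference was 2.07 ± 0.22 (adjusted p = 0.00535). Without replicate 1 of the control intestine the adjusted p was 0.0686. *Isl1* stood at 15.3 and 11.3 CPM against 3.46 and 4.95 CPM. Its groups did not overlap either, with a log2 difference of 1.67 ± 0.31 (adjusted p = 0.0348), but the call was lost when any 1 of the 4 libraries was left out (adjusted p = 0.0522 to 0.241).

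*Six2* was measured at 29.5 and 26.3 CPM in the *Eed* KO intestine against 5.76 and 13.1 CPM in controls, and its log2 difference of 1.57 ± 0.33 fell just short (adjusted p = 0.0532). *Gata3* stood at 3.51 and 4.59 CPM against 0.253 and 0.774 CPM, the widest ratio of the 5, with a wide error (3.01 ± 0.81, adjusted p = 0.113). *Nkx2-5* stood at 3.06 and 4.42 CPM against 0.478 and 1.18 CPM (2.20 ± 0.82, adjusted p = 0.266). In all 3 genes both knockout libraries lay above both controls. DESeq2 called *Six2* and *Gata3* as well (adjusted p = 3.16e-05 and 0.0226), and edgeR without the filter on low counts called all 5.

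With spike-in scaling, which moved the median gene by 1.85 in the intestine, all 5 were called, and 13664 of the 16218 genes tested were called higher. Relative to that median the differences were 2.33 for *Nkx2-5* and 3.11 for *Gata3*, and for *Six2* 1.59. *Tlx1* was counted 3 and 19 times in the *Eed* KO intestine and not in its control, and its part in these differences was not tested.

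**Figure D2:**
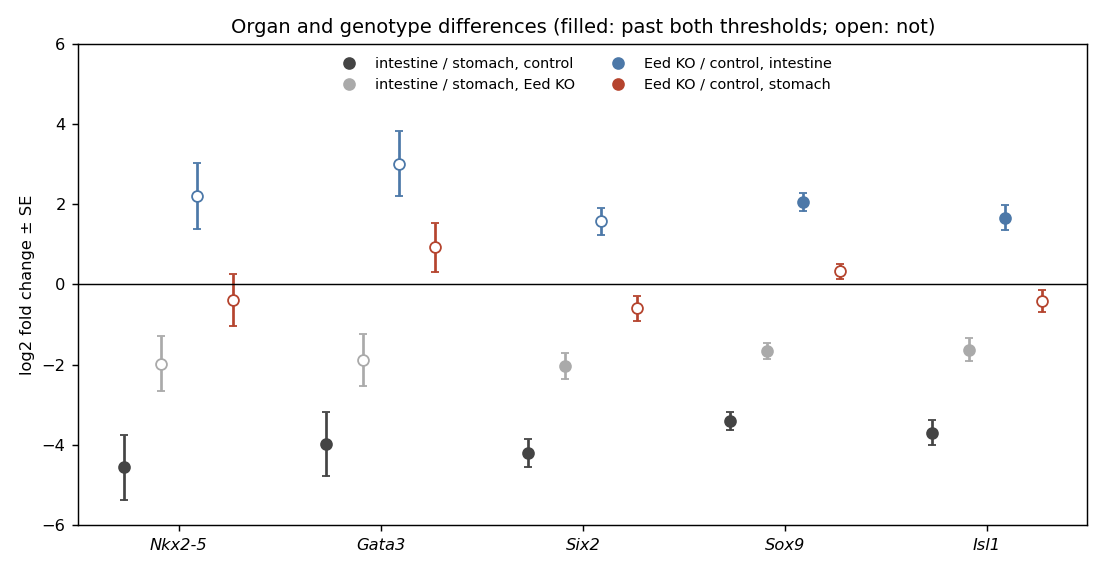
Log2 fold changes with their SE from the edgeR fit for the 5 genes in 4 comparisons, filled where past both thresholds. Organ differences in controls (dark grey) lie between -4.56 and -3.40, those in the Eed KO (light grey) between -2.04 and -1.62, and the Eed KO differences of the intestine (blue) lie between 1.57 and 3.01.

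Between the *Eed* KO organs all 5 genes were still lower in the intestine in every library, and 3 passed the test (of all genes, 2.94% were lower and 1.46% higher). The log2 differences of intestine over stomach were -2.04 ± 0.33 for *Six2* (adjusted p = 0.0126), -1.66 ± 0.19 for *Sox9* (adjusted p = 0.00406) and -1.62 ± 0.29 for *Isl1* (adjusted p = 0.0186). *Nkx2-5* at -1.98 ± 0.69 (adjusted p = 0.159) and *Gata3* at -1.89 ± 0.64 (adjusted p = 0.15) did not pass, though both did without the filter on low counts and in a fit of these groups alone. Without replicate 2 of the *Eed* KO intestine only *Sox9* was called.

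Expressed as a share of the stomach mean, the intestinal mean was 4.30% for *Nkx2-5*, 6.46% for *Gata3*, 5.45% for *Six2*, 9.47% for *Sox9* and 7.73% for *Isl1* in controls. In the *Eed* KO the same shares were 25.4%, 27.0%, 24.3%, 31.7% and 32.4% in that order. All 5 thus ended between 24.3% and 32.4%, and *Barx1*, the homeobox gene that marks the stomach field, went from 0.170% to 3.29%. These shares use the same libraries as the comparisons above.

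Whether the organ difference itself changed was tested as an interaction, the control difference minus the *Eed* KO difference, with the study's adjusted p threshold of 0.2. *Sox9* passed at -1.74 ± 0.29 (adjusted p = 0.108), where 0.462% of all genes passed in either direction. *Isl1* (-2.07 ± 0.41, adjusted p = 0.215), *Six2* (-2.16 ± 0.45, adjusted p = 0.24), *Nkx2-5* (-2.59 ± 1.04, adjusted p = 0.812) and *Gata3* (-2.09 ± 1.03, adjusted p = 0.947) did not. The call of *Sox9* was lost without any single library other than those of the *Eed* KO intestine (adjusted p = 0.212 to 0.436). DESeq2 called *Isl1* and *Six2* besides *Sox9*.

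The genes whose profile over the 8 embryonic libraries was most like each of the 5 were taken from 13386 genes with a mean of at least 1 CPM. Likeness was the root mean square difference of log2 CPM, each gene centred on its mean. *Six2* was closest to *Pitx1* (0.341), the paired-type homeobox gene of the posterior stomach, then to *Isl1* (0.360) and *Crym* (0.382). *Nkx2-5* and *Gata3* were near each other (0.543): *Gata3* was the closest gene to *Nkx2-5*, ahead of *Galnt5* (0.548) and *Col4a4* (0.573), and *Nkx2-5* was second to *Lef1* (0.519) for *Gata3*, with *AI427809* (0.574) behind it. *Isl1* was closest to *Alox15* (0.336), *Gabra4* (0.358) and *Six2*. The nearest genes to *Sox9* were *Aim1* (0.247), *Lepr* (0.276) and *Slitrk3* (0.285), and none of the other 4 genes was among its first 10. These distances share libraries and depth and are a description.

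Relatives of the 5 genes within each family were examined for comparison, beside a median log2 difference of 0.00 over all tested genes in the stomach (intestine, 0.01). Of 4 GATA genes tested besides *Gata3*, all 4 rose in the *Eed* KO of both organs (median 2.07 and 2.90). On the log2 scale *Gata4* rose by 2.59 ± 0.30 in gastric and 3.69 ± 0.36 in intestinal mesenchyme, and *Gata2* by 3.00 ± 0.30 and 3.36 ± 0.43. Of 4 NK genes tested besides *Nkx2-5*, 3 rose in the *Eed* KO stomach (median 4.88), among them *Nkx2-3* (4.32 ± 0.63), and none passed in the *Eed* KO intestine (median 2.25). Among the relatives of *Six2*, *Six4* rose in the *Eed* KO stomach (1.49 ± 0.14) and did not pass in the *Eed* KO intestine (0.49 ± 0.14, adjusted p = 0.126). Of 6 LIM homeodomain genes besides *Isl1*, 5 rose in the *Eed* KO stomach (median 2.57) and 1, *Lhx9*, in the intestine (6.13 ± 0.74, with a median of 4.74 for the list), where DESeq2 called 4. None of 6 SOX genes besides *Sox9* passed in either organ (median 0.15 and 0.28), with *Sox8* at 0.98 ± 0.19 in the stomach, just inside the size threshold. Of the 10 endothelial markers, 5 were called higher in the *Eed* KO stomach (median 1.49), and 4 in the intestine (median 1.59), with none listed at 0. Their part in the changes of these families was not tested. Medians and counts of the NK and LIM lists rest in part on genes near 0 in the controls. *Nkx2-2*, *Nkx2-9* and *Lmx1b* had means of 0.0127, 0 and 0.0145 CPM in the control stomach. In the *Eed* KO stomach their means were 0.735, 0.367 and 2.51 CPM. Such genes passed the filter on low counts only through the knockouts, so their rise was favoured by the filter and is not evidence on the family. With 1 factor of unwanted variation taken from the spike-ins, 3 GATA, 0 NK and 0 LIM genes were called higher in the stomach and 1 SOX gene lower. With spike-in scaling all the GATA, NK, LIM and SOX relatives tested in that organ were called higher, as were 15419 of the 16218 genes tested.

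Genes of the signals that pattern the pylorus were mostly not called. Of 21 BMP pathway genes, 2 were lower in the control intestine, the receptor *Bmpr1b* (-4.08 ± 0.16) and the target *Msx1* (-2.22 ± 0.30). The targets *Msx1* and *Msx2*, homeobox genes induced by BMP, were also the 2 that rose in the *Eed* KO of each organ, *Msx1* by 1.11 ± 0.24 in gastric and 2.05 ± 0.30 in intestinal mesenchyme and *Msx2* by 2.66 ± 0.51 and 4.74 ± 0.72. No ligand or antagonist of the list passed in either organ (the median log2 difference of the list was 0.00 in gastric and 0.13 in intestinal mesenchyme). *Msx2* had means of 0.180 CPM in the control stomach and 0.0337 CPM in the control intestine. It passed the filter on low counts only through the knockouts, which favoured its rise. With the spike-in factor of unwanted variation, 0 of the list were higher and 1 was lower in the stomach, and 2 were higher and 1 was lower in the intestine. Of 13 Hedgehog and FGF pathway genes, 1 was lower in the control intestine, the ligand *Fgf10* (-1.58 ± 0.24), and 0 passed in either *Eed* KO comparison by edgeR or DESeq2 (medians of -0.25 for stomach and -0.12 for intestine). The smallest adjusted p was that of *Foxf1*, a Hedgehog target, at -0.62 ± 0.11 in the stomach (adjusted p = 0.0156), inside the size threshold. *Fgfr2* was also inside it there, at -0.67 ± 0.13 (adjusted p = 0.0230).

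Of 16 regional mesenchymal factors, 5 were lower and 2 higher in the control intestine. *Barx1* (-9.23 ± 0.41) and *Pitx1* (-4.18 ± 0.27) were among the lower ones and *Hand1* (6.40 ± 0.66) among the higher. In the *Eed* KO 6 of the 16 rose in the stomach (median of the list 0.24) and 4 in the intestine (median 0.59), against 2 and 3 with the spike-in factor of unwanted variation. *Barx1* rose by 3.53 ± 0.37 in the intestine, and *Eya2*, a partner of sine oculis proteins, rose in both organs (2.85 ± 0.34 in the stomach).

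None of 12 smooth muscle genes passed in either *Eed* KO comparison by edgeR or DESeq2 (medians of -0.27 for stomach and 0.43 for intestine), and 2, *Des* (1.18 ± 0.19) and *Synpo2* (1.25 ± 0.26), passed as higher on the intestinal side of the control organs. Between the *Eed* KO organs 6 were higher in the intestine, among them *Des* (1.27 ± 0.19) and *Actg2* (1.31 ± 0.28), but 1 in a fit of these groups alone and 0 with spike-in scaling, and the interaction called none. With the spike-in factor of unwanted variation 8 of the 12 were lower in the *Eed* KO stomach. Of 10 cartilage genes that SOX9 is known to drive, *Col2a1* and *Col11a1* were lower in the control intestine (-3.53 ± 0.54 and -1.71 ± 0.32) and *Col2a1* rose in the *Eed* KO intestine (2.74 ± 0.53), while in the *Eed* KO stomach *Comp* rose (2.89 ± 0.61) and *Hapln1* fell by 1.26 ± 0.22. The median of this list was -1.58 between the control organs, 1.01 for loss of *Eed* in the stomach and 1.11 for its loss in the intestine. The calls of *Comp* and of *Col2a1* in the knockouts were not made with the spike-in factor of unwanted variation. *Comp* was also low in the stomach, with means of 0.0817 CPM in the control and 0.626 CPM in the *Eed* KO. It passed the filter on low counts only through the knockouts.

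A peak at the gene start was present in both organs and genotypes. All 5 genes had one within 1000 bp of the start in all 4 lists, as did 87% of the promoters of all tested genes. Fold enrichment over the MACS2 background at the *Isl1* start was 8.43 in the control intestine, 7.39 in the *Eed* KO intestine, 7.42 in the control stomach and 6.97 in the *Eed* KO stomach, close to the medians of all promoters (6.46 to 6.91). At *Six2* it was 3.91, 3.32, 4.88 and 4.23 in the same order. At *Sox9* it was 3.79, 3.12, 3.58 and 3.10. The lists are 1 for each condition, so these differences have no replicate check.

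At *Nkx2-5* the values were 2.94, 2.62, 3.43 and 3.01, which placed it between percentiles 1.72 and 6.50 of all promoters with a peak. At the 5′ end of the *Gata3* gene model (base 9890034) they were 3.19, 3.23, 3.75 and 3.27. At its RefSeq start (base 9878600), added after the data were seen, the peak was stronger, at 5.75, 4.45, 5.41 and 3.53. The control stomach value exceeded that of the control intestine for *Nkx2-5*, *Gata3* and *Six2*, by 1.17, 1.18 and 1.25 times against a median of 0.993 over all promoters (percentiles 95.1, 95.6 and 98.0), and did not for *Sox9* (0.946) or *Isl1* (0.880). The *Gata3* ratio is that of the 5′ end of the gene model. At its RefSeq start the order was reversed, with 5.41 in the control stomach and 5.75 in the control intestine. The peaks compared were of unlike width, so these ratios do not compare the same bases. In the control stomach and control intestine the widths were 561 and 382 bp for *Nkx2-5* and 1445 and 1824 bp for *Gata3*. For *Six2* they were 1035 and 1995 bp. The *Gata3* peak at the RefSeq start was 1381 bp wide in the control stomach and 3196 bp in the *Eed* KO stomach. With only peaks of a -log10 q of at least 5, *Nkx2-5* kept no promoter peak in either intestinal list. *Gata3* kept none in the control intestine at the 5′ end of its gene model. At the RefSeq start of *Gata3* the control intestine peak had a -log10 q of 65.6.

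**Figure D3:**
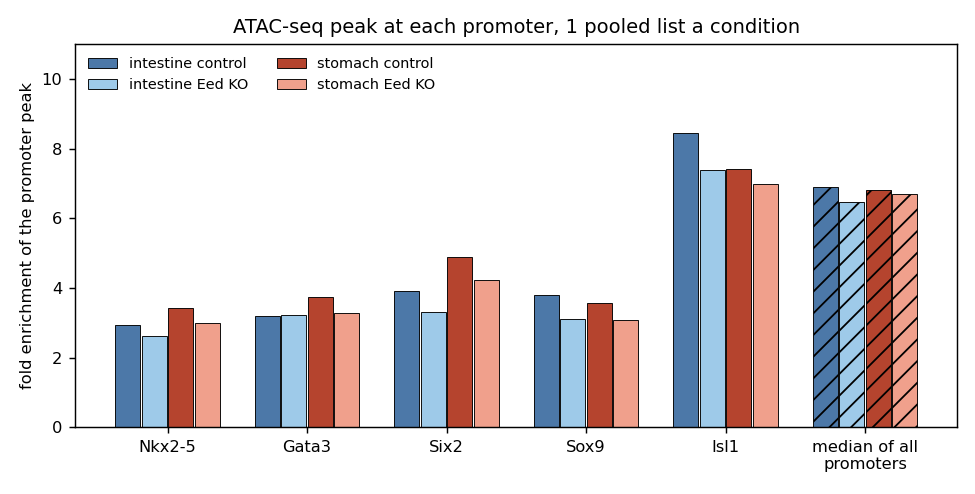
Fold enrichment of the strongest ATAC-seq peak within 1000 bp of each gene start (5′ end of the gene model) in the 4 peak lists, with the median over all promoters (hatched). Isl1 lies at 6.97 to 8.43 and the other 4 genes at 2.62 to 4.88, below the medians of 6.46 to 6.91.

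More differences were seen away from the starts. Within 50000 bp of the starts, regions with a peak in the control stomach and none in the control intestine numbered 5 for *Nkx2-5*, 4 each for *Gata3*, *Six2* and *Sox9*, and 2 for *Isl1*, against a median of 1 for all tested genes. The reverse pattern was found once, near *Six2*. Of the 19 regions, 10 (52.6%) had a peak in the *Eed* KO intestine, against 41% of such regions around all tested genes. The control intestine list was the shortest of the 4, with 103808 peaks against 115789 to 119181.

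By -log10 q the first of the 19 was the region at -2716 bp from the *Six2* start printed above. Its fold enrichment was 3.44 in the control stomach (-log10 q = 26.5) and 2.51 in the *Eed* KO stomach (-log10 q = 12.8), and neither intestinal list held a peak there. The region at -20071 bp from the *Nkx2-5* start, with the 2 TNAAGTG matches, had 4.66 in the control stomach (-log10 q = 9.65), 4.50 in the *Eed* KO stomach (-log10 q = 9.52) and 3.13 in the *Eed* KO intestine (-log10 q = 3.35), and no peak in the control intestine. It overlaps exons of the gene models *Gm17382* and *Gm20468*. None of the other 17 reached a -log10 q of 5 in the control stomach, although by fold enrichment the *Gata3* region at 28988 bp (3.89) stood above that of *Six2*. Counted anew with only peaks of a -log10 q of at least 5, 7 regions had the pattern, these 2 and 5 whose control intestine peak lay under that limit.

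**Figure D4:**
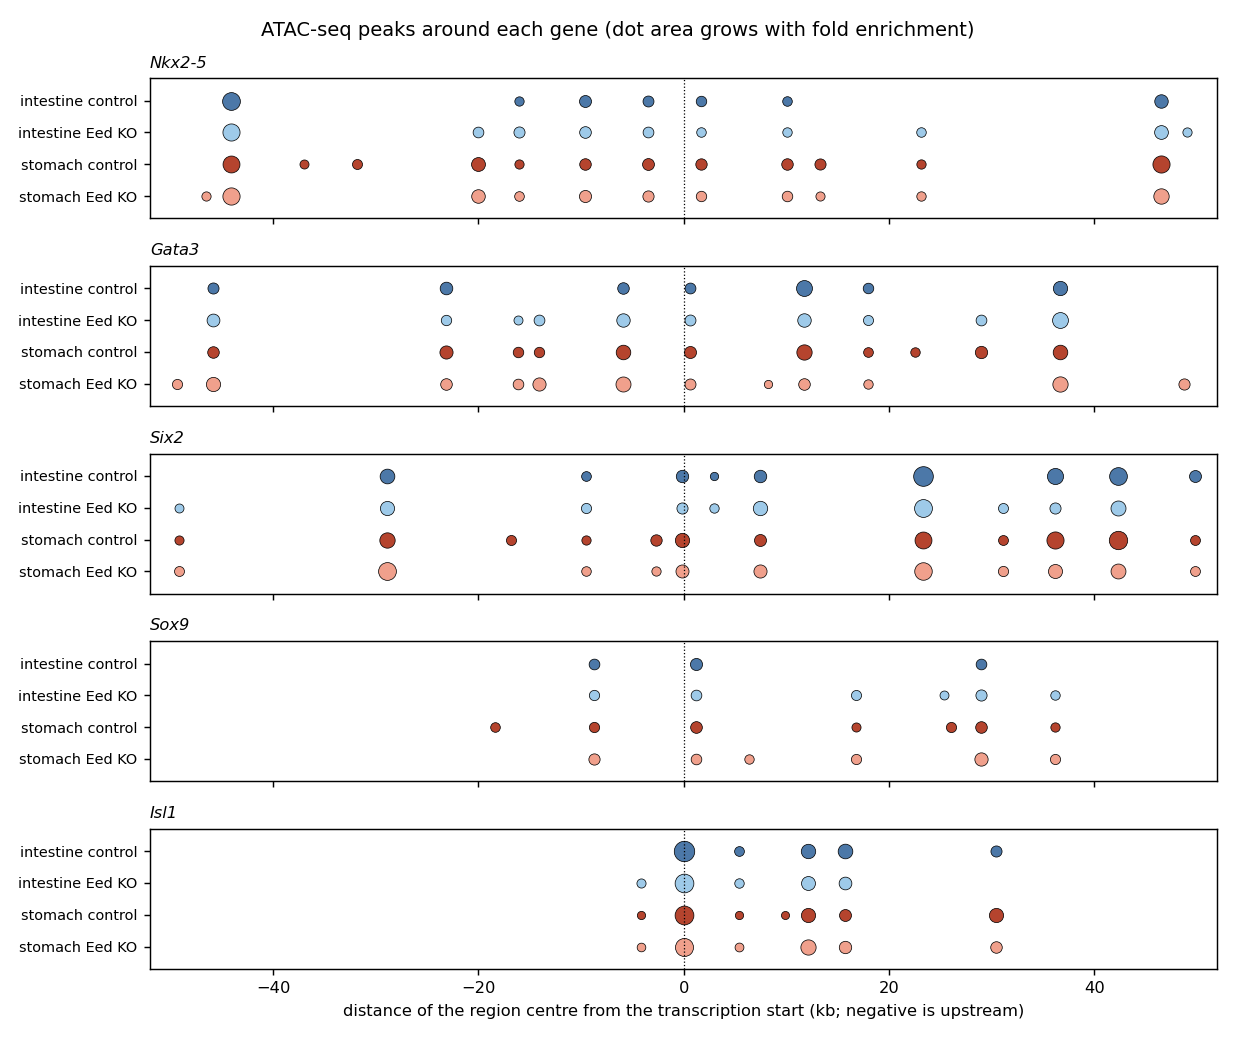
ATAC-seq regions within 50 kb of each gene start by distance, 1 row for each of the 4 lists, dot area growing with fold enrichment. The control stomach rows hold dots that the control intestine rows lack (5, 4, 4, 4 and 2 from top to bottom), among them the one at -2716 bp from the Six2 start.

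In the adult intestine the 5 genes parted. *Nkx2-5* had 2 and 2 counts in controls and 2 and 1 in knockouts, and *Six2* had 4 and 0 in controls and 0 and 2 in knockouts. Both failed the filter on low counts. Over raw library totals, without TMM scaling, a count of 0 allows up to 0.245 CPM in that control library and 0.263 CPM in that knockout. *Isl1* was measured at 1.10 and 0.841 CPM in controls and 1.51 and 0.928 CPM in knockouts (log2 difference 0.32 ± 0.67, adjusted p = 0.771), on 12 to 15 counts.

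*Sox9* was measured at 55.7 and 48.8 CPM in adult controls and at 24.0 and 22.1 CPM in adult knockouts. Both knockouts lay below both controls, and the gene was lower by the test (-1.18 ± 0.20, adjusted p = 0.00698), as were 7.23% of all genes. The direction was opposite to that of the embryonic intestine.

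*Gata3* was measured at 7.61 and 5.89 CPM in adult controls and at 13.55 and 26.3 CPM in adult knockouts. It rose past the test (1.56 ± 0.39, adjusted p = 0.0271), as did 12.3% of all genes, but not without replicate 2 of the knockouts (1.00, adjusted p = 0.135) or of the controls (1.40, adjusted p = 0.0603). Adult counts were made without strand, so reads of *Gata3* and of the antisense genes *Gm13256* and *4930412O13Rik* inside its span cannot be told apart where their exons overlap.

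The adult libraries also differed in cell makeup. All 9 macrophage and leukocyte markers tested were higher in the knockouts, none was listed at 0, and their sum was 1399 to 1955 TPM in controls and 24410 to 28950 TPM in knockouts. The sum of the mesenchymal markers was 3624 to 3643 TPM in controls and 742.5 to 1126 TPM in knockouts. Enteric neural crest and neuron markers summed to 183.5 to 303.9 TPM in controls and 60.0 to 60.75 TPM in knockouts. Most of that was *Ednrb* (means of 241.4 and 51.4 TPM), and of 6 such markers tested 1 was called higher and 1 lower. Pancreas markers summed to 24.0 and 52.9 TPM in the control libraries and to 22.5 and 1049 TPM in the knockout libraries. Lymphocyte markers, a class in which *Gata3* is also active, summed to 73.1 to 83.0 TPM in controls and 68.4 to 85.5 TPM in knockouts. These near-equal sums mixed unlike changes. The most abundant marker was *Cd79a* in controls (mean 27.9 TPM) and *Il7r* in knockouts (mean 23.4 TPM). Of 9 lymphocyte markers tested, 1 was called higher and 1 lower, with a median log2 difference of 0.55. The part of these cells in the *Sox9* and *Gata3* differences was not tested. With them, 8 of the 13 Hedgehog and FGF pathway genes were lower in the adult knockouts, among them *Ptch1* (-1.72 ± 0.23) and *Fgfr2* (-2.29 ± 0.32), and the BMP ligands *Bmp4* (-1.98 ± 0.31), *Bmp5* (-2.46 ± 0.50) and *Bmp7* (-2.55 ± 0.47) were as well.

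Set side by side with no test, since age, Cre line, kit and strand all differ, control intestine levels were 1.64 TPM in the embryo and 0.241 TPM in the adult for *Nkx2-5*, 13.4 and 0.180 for *Six2*, 3.19 and 0.629 for *Isl1*, 0.390 and 4.36 for *Gata3* and 0.784 and 32.4 for *Sox9*. The order of the embryo, led by *Six2*, was thus not that of the adult, which *Sox9* led.

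**Figure D5:**
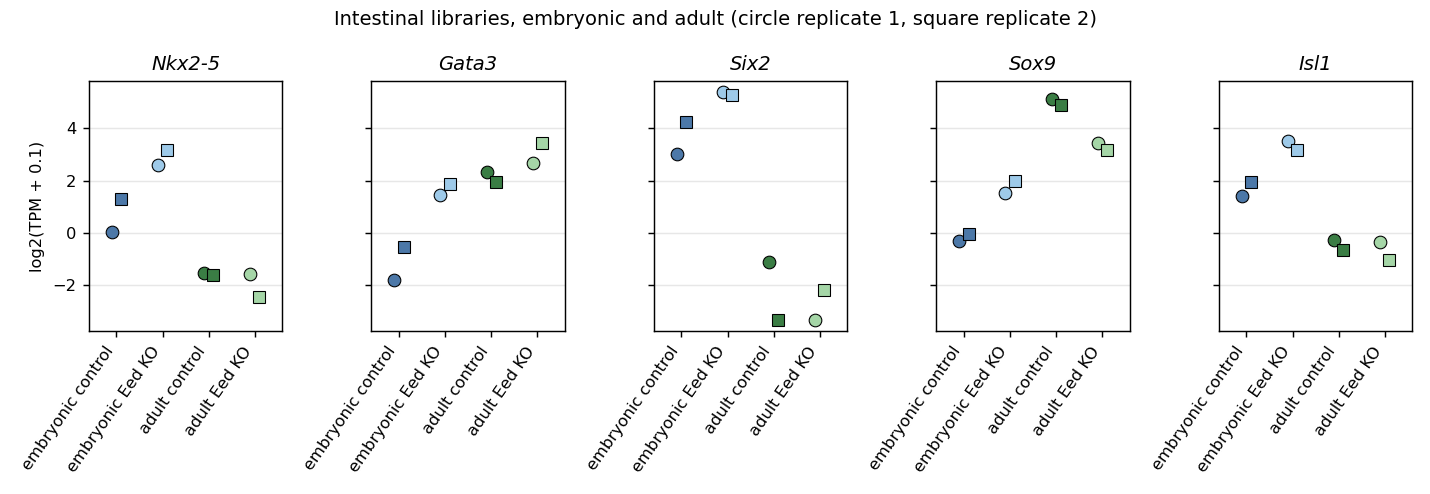
Log2(TPM + 0.1) of the 5 genes in the 4 embryonic and 4 adult intestinal libraries, control and Eed KO. Nkx2-5, Six2 and Isl1 lie lower in the adult libraries, and Sox9 lies higher in the embryonic knockouts and lower in the adult knockouts than in their controls.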

How the data were processed

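The 5 genes, the gene lists and the tests were chosen with earlier results of these data known. Per the submitters' processing notes, reads were trimmed with Trimmomatic 0.32 and aligned to mm10 with STAR 2.5.1b (RNA-seq) or BWA 0.7.8 (ATAC-seq). The authors counted reads per gene with featureCounts, on GENCODE vM4 per the adult file headers (featureCounts 1.5.0, no strand), and deposited whole-number counts without normalization. The authors pooled ATAC-seq replicates of a condition and called broad peaks with MACS2 2.1.2, and the deposited peaks carry a fold enrichment ratio over background and a -log10 q. Of these peaks, 13.5% to 20% had a -log10 q below 2.

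Counts were tested with edgeR 4.0.16 (R 4.3.3, TMM, filterByExpr, quasi-likelihood F-test, Benjamini-Hochberg over all genes tested), with 4 group means over the 8 embryonic libraries (16218 genes) and 2 over the 4 adult libraries (15039 genes). Calls required a change of more than 1 log2 unit with an adjusted p under 0.05, or under 0.2 for the interaction. With 2 libraries against 2, an exact permutation test of a single gene could not go below p = 0.333, so such tests were not used. Each standard error is the log2 fold change over the square root of its F statistic. CPM are TMM-scaled, except the limits for a count of 0, which use raw library totals, and TPM use the gene lengths of the adult files. Peaks were compared with bedtools 2.31.1 at an overlap of at least 1 bp. Intervals for a count of 0 (3 counts) cover counting error only, and peak files carry no depth. Named genes are the 5 genes, at most 4 genes of a list with the smallest adjusted p in a comparison, the 3 genes nearest to each of the 5 in profile, and overlapping or antisense genes. *Lhx9* is named as the only gene of a count, and marker genes as examples of their lists. Some genes of the lists are not reported here. The procedure was tested on simulated data. Alternatives were DESeq2 1.42.0, no filter, spike-in scaling, DESeq2 with 1 RUVg factor from the spike-ins, replicate blocks, fits of 2 groups, each library left out, and other peak thresholds, windows and overlaps.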

Additional observations from a re-analysis of the deposited data

Results flagged for a closer look

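*Sox9* stood out because the response to *Eed* loss differed between the organs by the test of the difference itself. The organ difference in controls minus that in the *Eed* KO was -1.74 on the log2 scale (edgeR quasi-likelihood F-test, adjusted p = 0.108, threshold 0.2).

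*Six2* stood out because both *Eed* KO libraries lay below both controls in the stomach (112 and 118 against 197 and 149 CPM) and above both controls in the intestine (29.5 and 26.3 against 5.76 and 13.1 CPM). The test of this difference gave -2.16 on the log2 scale and did not pass (adjusted p = 0.24). It passed under 5 of the 6 alternatives that kept all libraries, and not with spike-in scaling.

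*Sox9* also moved in opposite directions in every library of the embryonic and the adult intestine. It was higher in the embryonic knockouts (2.07) and lower in the adult knockouts (-1.18), and the difference between the 2 ages was not tested.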

How the results depend on the processing

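Of 175 values recomputed with every library kept, 29 gained a call, 6 lost one, 5 reversed, and 135 held their direction and their side of the threshold. Of 132 values with 1 library left out, 105 did and 2 reversed. The cause of these changes was not tested.

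With spike-in scaling the log2 differences of the *Eed* KO stomach were 2.16 for *Nkx2-5*, 3.49 for *Gata3*, 1.84 for *Six2*, 2.69 for *Sox9* and 1.91 for *Isl1*, with 5 of the 5 genes and 15438 of all genes called (99.9% of them higher), against 0 and 916 (85.7% higher) with TMM. In the *Eed* KO intestine they were 4.18 for *Nkx2-5*, 4.97 for *Gata3* and 3.44 for *Six2*, with 5 members and 13688 genes called (99.8% higher), against 2 and 423 (91.3% higher). Between the control organs 155 genes were called (45.2% higher), against 822 (33.2%). Between the *Eed* KO organs 0 of the 5 and 115 genes were called (17.4% higher), against 3 and 714 (33.2%), with *Six2* at -2.34, *Sox9* at -1.78 and *Isl1* at -1.87. For the interaction 0 of the 5 and 20 genes were called, all higher, against 1 and 75 (58.7% higher), with *Sox9* at -1.32. In the adult 1 of the 5 was called, *Gata3* was at 1.13 and *Isl1* at -0.030 (46.6% of calls higher, against 63.0%), and the median gene moved by -0.42.

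With 1 RUVg factor *Isl1* in the *Eed* KO stomach was at 0.48 (not past the test), and the share of calls that were higher was 51.2% in the stomach, 63.3% in the intestine and 42.8% for the interaction. The interaction then called 3 of the 5 and 243 genes, with *Six2* at -2.06 and *Isl1* at -1.85, and the adult comparison 1 of the 5, with *Gata3* at 1.24 and no longer past the test.

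DESeq2 called 4 of the 5 and 685 genes in the *Eed* KO intestine (*Gata3* 2.99, *Six2* 1.57) and 3 and 207 for the interaction (*Six2* -2.15, *Isl1* -2.07). Without the filter edgeR called 5 and 800 genes in the *Eed* KO intestine (*Nkx2-5* 2.20, *Gata3* 3.015, *Six2* 1.57), 5 between the *Eed* KO organs (*Nkx2-5* -1.97, *Gata3* -1.885) and 4 and 237 genes for the interaction (*Nkx2-5* -2.59, *Six2* -2.17, *Isl1* -2.08). A fit of the 2 groups alone called 244 genes in the *Eed* KO intestine (*Gata3* 3.00, past the test) and 5 of the 5 and 397 genes between the *Eed* KO organs (*Nkx2-5* -1.96, *Gata3* -1.88).

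The labels do not say that replicate numbers mark shared animals, and the deviations of libraries with the same number correlated at 0.0470 to 0.628, the highest between the *Eed* KO organs. With a replicate block *Six2* passed in the *Eed* KO intestine (1.60), and the interaction called 3 of the 5 and 187 genes (*Six2* -2.19, *Isl1* -2.04). Another block joined the libraries of a genotype with the same replicate number, which no label ties to the same embryos. With it all 5 and 1131 genes were called between the *Eed* KO organs (*Nkx2-5* -1.98, *Gata3* -1.88), and the interaction called 3 and 350 genes (*Six2* -2.20, *Isl1* -2.06). The block changed no other call of the 5 genes.

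With 1 library left out, the number of the 5 genes called ranged from 3 to 5 between the control organs, 0 to 2 in the *Eed* KO intestine, 1 to 3 between the *Eed* KO organs, 0 to 2 for the interaction and 1 to 2 in the adult. Genes called ranged from 370 to 500, 74 to 363, 304 to 528, 27 to 97 and 2299 to 3126 in these comparisons, and from 344 to 650 in the *Eed* KO stomach. Between the control organs *Nkx2-5* ranged from -5.32 to -2.97 and *Gata3* from -4.95 to -2.52. In the *Eed* KO stomach *Nkx2-5* ranged from -1.13 to 1.20. In the *Eed* KO intestine *Six2* ranged from 1.09 to 2.27, *Sox9* from 1.83 to 2.27 and *Isl1* from 1.42 to 1.94, and between the *Eed* KO organs *Six2* from -2.13 to -1.96 and *Isl1* from -1.86 to -1.36. For the interaction *Six2* ranged from -2.86 to -1.67, *Sox9* from -1.94 to -1.51 and *Isl1* from -2.37 to -1.71. In the adult *Gata3* ranged from 1.00 to 1.94 and *Isl1* from -0.085 to 0.62.

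With peaks of a -log10 q of at least 5, 3 of the 5 genes kept a promoter peak at the 5′ end of the gene model in all 4 lists. At this limit 7 regions had a peak in the control stomach and none in the control intestine, 2 of them among the 19. Adult *Nkx2-5* and *Six2* were too low to test at this depth.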

Other observations

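Near *Six2*, 1 region showed the organ pattern opposite to that of the gene's RNA. It lay 2982 bp downstream of the start (chr17:85685128-85685455, mm10), within the gene, and was chosen after its values were seen. Its fold enrichment was 2.13 in the control intestine (-log10 q = 3.17) and 2.55 in the *Eed* KO intestine (-log10 q = 6.15), and neither stomach list held a peak there. A second region, 30430 bp downstream of the *Isl1* start, had a peak in the control intestine (3.31) and in both stomach lists (4.84 and 3.51) and none in the *Eed* KO intestine, where *Isl1* RNA was higher than in the control.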
